A study of Mus musculus with 13 samples.

Results

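The genes described here carry the mouse symbol Zfp followed by a number, the naming series for zinc finger proteins. They were measured by bulk RNA sequencing in macrophages of the sciatic nerve (4 libraries), macrophages of the optic nerve (4 libraries) and microglia of the brain (5 libraries). Members were chosen by symbol and selected on their counts. A gene was taken as a member when its symbol has that form, Zfp36 left out, and when it has at least 100 counts in at least 4 of the 13 libraries. Of 371 Zfp rows in a table of 48587 gene rows, 225 are members and 146 fall below the threshold, 28 of these with no count in any library. All samples are total RNA from C57BL/6J mice, and the labels give no age, sex, cell sort or treatment for the bulk samples. The 5 columns used as brain microglia carry a prefix that the labels do not explain and were assigned by elimination, so they are called brain libraries 1 to 5 by column number. The labels do not say that replicates come from separate animals, so p-values measure the spread between these samples, which may be technical.

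Most Zfp genes encode C2H2 zinc finger proteins, in which each finger is a short loop held by a zinc ion and a row of fingers reads a stretch of DNA. The largest group also carries a KRAB domain at its amino end, which recruits the co-repressor Trim28 (KAP1) and, through it, the histone methyltransferase Setdb1, HP1 proteins and DNA methylation. Such proteins are known for silencing retroelements and guarding imprinted loci, and many lie in clusters of near copies on the chromosome. The naming series also holds proteins with other work, among them ribosome assembly factors, ubiquitin ligases and RNA-binding proteins.

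The promoters of 4 members are shown because these genes stood at the ends of the comparison with brain. Among members called in both nerves and present in the promoter table, Zfp11 and Zfp697 had the lowest and Zfp367 and Zfp655 the highest mean of the log2 fold changes against brain. The 300 bases run from 250 before to 50 after the annotated start, 5′ to 3′ along the gene (RefSeq, GRCm38.p6). Capitals mark CCGGAA, 1 form of the site bound by ETS factors, searched on both strands. Other forms of the site were not searched and are not marked.
Zfp11 (chr5:129670039-129670338, strand minus): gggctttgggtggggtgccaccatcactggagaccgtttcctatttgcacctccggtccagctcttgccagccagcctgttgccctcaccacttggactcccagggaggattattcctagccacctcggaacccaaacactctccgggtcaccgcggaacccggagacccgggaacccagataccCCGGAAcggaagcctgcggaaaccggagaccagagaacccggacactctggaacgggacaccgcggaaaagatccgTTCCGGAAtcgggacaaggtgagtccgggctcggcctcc
Zfp697 (chr3:98382231-98382530, strand plus): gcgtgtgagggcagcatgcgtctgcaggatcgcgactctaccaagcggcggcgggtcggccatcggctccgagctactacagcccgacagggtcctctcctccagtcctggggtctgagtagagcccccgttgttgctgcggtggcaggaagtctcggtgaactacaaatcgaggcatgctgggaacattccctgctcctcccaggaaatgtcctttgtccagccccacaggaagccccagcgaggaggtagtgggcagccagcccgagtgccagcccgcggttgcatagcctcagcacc
Zfp367 (chr13:64153150-64153449, strand minus): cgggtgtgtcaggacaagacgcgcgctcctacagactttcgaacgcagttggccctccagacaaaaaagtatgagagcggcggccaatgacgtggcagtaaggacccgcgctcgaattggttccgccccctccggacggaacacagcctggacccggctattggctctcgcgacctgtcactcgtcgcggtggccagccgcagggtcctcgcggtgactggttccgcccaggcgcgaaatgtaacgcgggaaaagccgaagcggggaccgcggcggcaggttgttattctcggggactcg
Zfp655 (chr5:145231492-145231791, strand plus): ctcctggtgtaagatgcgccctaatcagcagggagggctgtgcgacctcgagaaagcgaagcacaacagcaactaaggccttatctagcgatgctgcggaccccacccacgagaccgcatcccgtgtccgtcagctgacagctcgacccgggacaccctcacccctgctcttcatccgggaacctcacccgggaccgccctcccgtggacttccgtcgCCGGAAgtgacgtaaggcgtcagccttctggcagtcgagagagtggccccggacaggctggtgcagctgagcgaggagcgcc
The promoter of Zfp11 holds 3 matches in 2 stretches, 2 of them overlapping on opposite strands, Zfp655 holds 1, and Zfp697 and Zfp367 hold none. A promoter entry was found for 189 of the 225 members. CCGGAA lies in 38.1% of these, in 29.4% of the promoters of all genes tested (9453) and in 15.2% of all 27025 promoters in the table. It lies in 35.2% of the 91 promoters of members lower in sciatic nerve than in brain and in 38.1% of the 97 of members lower in optic nerve. The Sp1 box GGGCGG lies in 50.8% of member promoters against 64.3% over all genes tested, and the median number of CG pairs is 16 against 21. The YY1 core ATGGCG lies in 20.6% of member promoters and in 16.4% over all genes tested. These are counts of letters in a fixed window, given without a test.

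The members took a larger share of all counts in every brain library than in any nerve library. They held 0.606% to 0.664% of counts in brain, 0.268% to 0.349% in optic nerve and 0.233% to 0.268% in sciatic nerve. The median level of a member, in CPM (counts scaled to the library size after TMM normalization), was 14.9 ± 1.63 (SD, n = 5) in brain, 6.14 ± 0.972 (n = 4) in optic nerve and 5.52 ± 0.196 (n = 4) in sciatic nerve. Brain libraries 1 and 2, with medians of 12.8 and 13.5 CPM, stood below the other 3 brain libraries (15.5 to 16.5 CPM) and above every nerve library. No member was at 0 counts in any brain library, while 6 to 17 members were at 0 in each optic nerve library and 6 to 11 in each sciatic nerve library. These contrasts are partly set by the selection rule, since 118 members passed the threshold through brain alone. Among the 66 members over it in at least 4 libraries of each tissue, the median of the mean levels was 36.6 CPM in brain. It was 23.9 CPM in optic nerve and 23.8 CPM in sciatic nerve. In bulk samples, fewer cells of a type and less RNA per cell cannot be told apart.

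**Figure D1:**
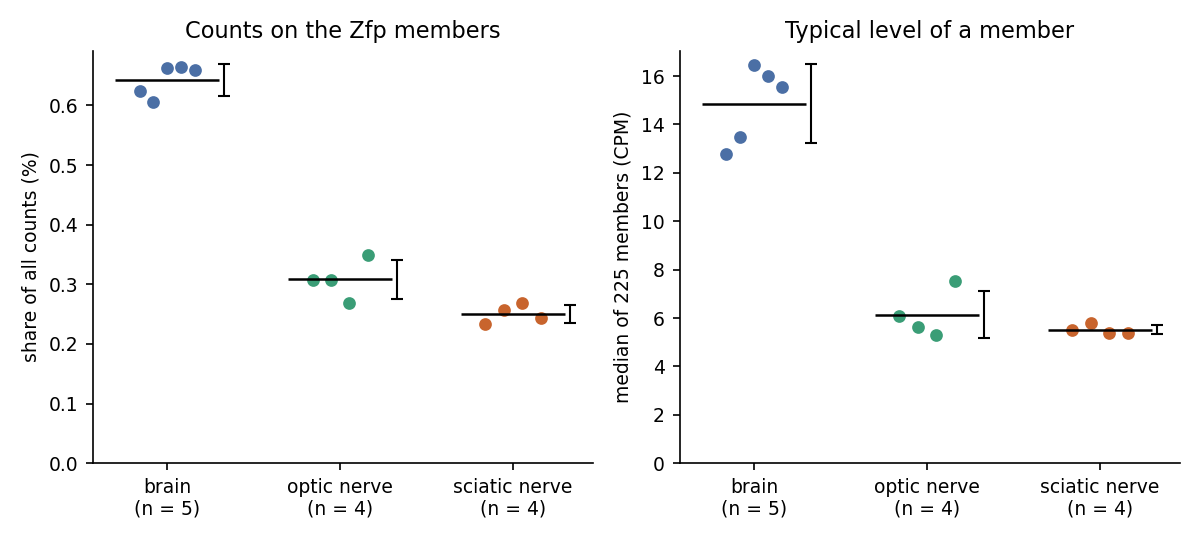
Share of all counts that fell on the 225 members (left, percent) and the median level of a member (right, CPM), with 1 point per library, a line at the mean and a bar of 1 SD beside it. All 5 brain libraries lie above all 8 nerve libraries in both plots, and sciatic and optic nerve overlap in the right plot. Of the members, 118 passed the threshold through brain alone.

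A gene could pass the threshold through a single tissue, and more members passed through brain alone than by any other route. Of the 225 members, 118 passed only through brain, 66 passed in at least 4 libraries of each tissue, 22 through optic nerve and brain, 5 through sciatic nerve and brain, 2 through optic nerve alone, 2 through sciatic nerve alone, and 10 only by libraries from several tissues. By this grouping, none of the 118 that entered through brain alone reached 100 counts in all 4 libraries of either nerve. The counts over all members are thus descriptions and support nothing. The 3 members just inside the threshold, Zfp609, Zfp935 and Zfp983, reach a count of 100 in just 4 libraries. The 3 rows just outside it, Zfp456, Zfp316 and Zfp335, reach 98, 97 and 96 in 4 libraries, with mean brain levels of 5.27, 7.34 and 3.97 CPM.

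Total counts were 10.9 to 23.5 M per library, and the TMM factors ran from 0.827 in sciatic nerve to 1.22 in brain. Brain library 1 was the shallowest and gave 3.79% of its counts to mitochondrial genes, where the remaining brain libraries gave 0.410% to 0.868%. The 5 macrophage markers were present in every library, at a sum of 7964 to 17780 CPM. The 7 microglial markers summed to 24180 to 50070 CPM in brain, 22050 to 24470 in optic nerve and 2495 to 2760 in sciatic nerve, and none was at 0 in any tissue. Markers of neurons summed to 1.59 to 27.4 CPM over all libraries, with the highest value in brain library 1 and Syt1 and Nefl at 0 in both nerves. Fibroblast markers reached 153.5 CPM in sciatic nerve and stayed at or below 3.55 CPM elsewhere, with Col3a1 and Lum at 0 in brain. Oligodendrocyte markers summed to 123 to 178 CPM in brain, 267 to 333 in optic nerve and 166 to 236 in sciatic nerve, with none of 6 at 0 in any tissue. Astrocyte markers summed to 1.10 to 3.17 CPM in brain, 5.44 to 21.2 in optic nerve and 19.3 to 88.6 in sciatic nerve, where Gja1 held most of the sum and Aqp4 was at 0. Endothelial markers summed to 17.4 to 48.6 CPM in brain, 12.7 to 19.4 in optic nerve and 0.623 to 6.99 in sciatic nerve, with Cldn5 at 0 in all 3 tissues. Schwann cell markers summed to 4.57 to 10.99 CPM in sciatic nerve, with Sox10 at 0, and to at most 1.46 CPM elsewhere. All 10 early response genes on a list (Fos, Jun, Egr1 and others) were higher in both nerves than in brain, at a sum of 342 to 409 CPM in brain, 11530 to 14870 in optic nerve and 23690 to 28170 in sciatic nerve. The part of these differences in the results on Zfp genes was not tested.

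Against brain microglia, most of the members called in sciatic nerve macrophages were lower. By edgeR's quasi-likelihood test at an adjusted p under 0.05 (Benjamini-Hochberg over 13246 genes), 111 members were lower and 12 higher, and 102 were not called. Of all genes tested, 24.3% were lower and 24.1% higher, and of the 9737 that meet the members' count threshold 27.0% and 26.6%. The median log2 fold change of the members was -1.42, beside -0.09 over all genes tested. In optic nerve against brain, 115 members were lower, 6 higher and 104 not called, where 17.4% of all genes tested were lower and 19.6% higher (20.2% and 22.7% of those over the threshold). The median there was -1.31 beside -0.08. Both comparisons use the same 5 brain libraries, and 89 members were lower in both, 6 higher in both and 76 called in neither. The matching joint shares over all genes tested are not given here, so these counts are a description only. They include members that passed the threshold through brain alone.

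Among the 66 members over the threshold in every tissue the shift was smaller. In sciatic nerve 27 of them were lower and 9 higher, at a median of -0.52, where 22.9% of all genes so abundant were lower and 28.0% higher at a median of 0.05. In optic nerve 25 were lower and 5 higher at a median of -0.47, beside 18.2% and 24.8% and a median of 0.07. Among the 118 members that entered through brain alone the medians were -2.08 and -2.23. Of the 71 Zfp rows below the threshold that were tested, 24 were lower and 1 higher in sciatic nerve, and 16 and 1 in optic nerve. These are 33.8% and 1.41% in sciatic nerve, beside 24.3% and 24.1% of all genes tested. In optic nerve they are 22.5% and 1.41%, beside 17.4% and 19.6%.

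**Figure D2:**
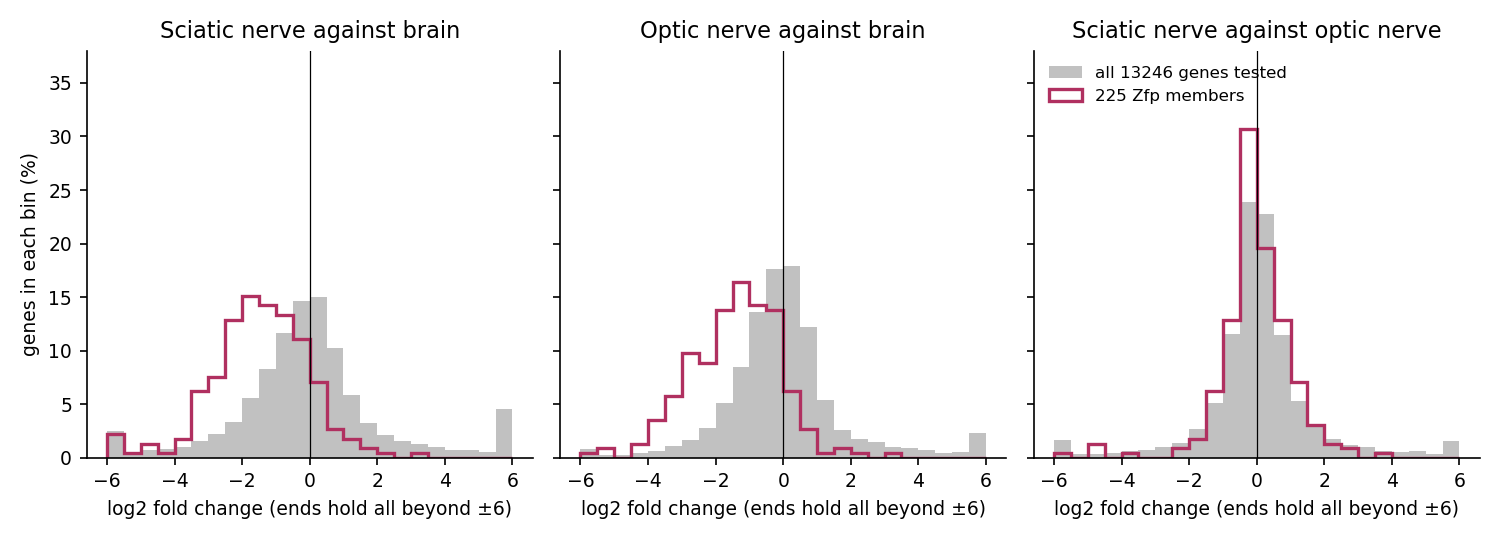
Distribution of log2 fold changes in 3 comparisons, as the percent of genes in bins of 0.5, for all 13246 genes tested (grey) and the 225 members (line). The members lie to the left of all genes against brain, with medians of -1.42 and -1.31, and over them between the nerves, with a median of -0.08.

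In 190 members the brain mean was the highest of the 3 tissues, in 18 the sciatic nerve mean and in 17 the optic nerve mean. This split is partly set by the selection rule, since 118 members passed the threshold through brain alone. The matching split over all genes tested is not given here. Every brain library lay above every nerve library for 85 members. The same holds for 9.72% of all genes tested and 11.3% of those over the members' count threshold. Every brain library lay below every nerve library for 6 members (12.4% of all genes tested and 14.8% of those over the threshold). They are Zfp131, Zfp330, Zfp367, Zfp593, Zfp622 and Zfp655, and these are also the 6 that were higher in both nerves.

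Several abundant members were lower in both nerves, with no overlap between brain and the nerves. Zfp207 (BuGZ), a protein of the spindle and kinetochore that binds Bub3, had 184, 230, 269, 268 and 271 CPM in brain, 118, 100, 102 and 129 in optic nerve, and 113, 127, 129 and 93.1 in sciatic nerve. The lowest brain library thus stood above the highest nerve library. By edgeR's quasi-likelihood test the log2 fold change was -1.08 (SE 0.16, adjusted p = 5.8e-05) in sciatic nerve and -1.12 (SE 0.16, adjusted p = 7.9e-05) in optic nerve. Zfp710 had 185, 166, 133, 135 and 130 CPM in brain, 52.3, 48.4, 51.0 and 69.9 in optic nerve, and 52.7, 56.0, 38.2 and 34.4 in sciatic nerve. It fell by 1.73 (SE 0.19) in sciatic and 1.44 (SE 0.19) in optic nerve on the log2 scale, with adjusted p = 3.7e-06 and 4.4e-05 by the same edgeR test. An annotated gene, Gm44949, overlaps it on the other strand.

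Zfp292, a large transcription factor first described at the growth hormone gene, had 111, 78.7, 65.6, 63.4 and 88.1 CPM in brain, 14.8, 13.3, 10.9 and 22.1 in optic nerve, and 23.8, 18.7, 21.8 and 23.6 in sciatic nerve. Its log2 fold change was -2.41 (SE 0.22, adjusted p = 2.1e-06, edgeR quasi-likelihood test) in optic and -1.89 (SE 0.22, adjusted p = 1e-05) in sciatic nerve. Zfp644, a partner of the histone methyltransferases G9a and GLP, had 127, 81.7, 65.9, 64.5 and 62.8 CPM in brain, 17.5 to 26.3 in optic nerve and 16.1 to 27.6 in sciatic nerve. For both genes brain library 1 was the highest, and the other 4 brain libraries also lay above all nerve libraries. Zfp644 fell by 1.74 in sciatic and by 1.88 in optic nerve (both SE 0.24).

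**Figure D3:**
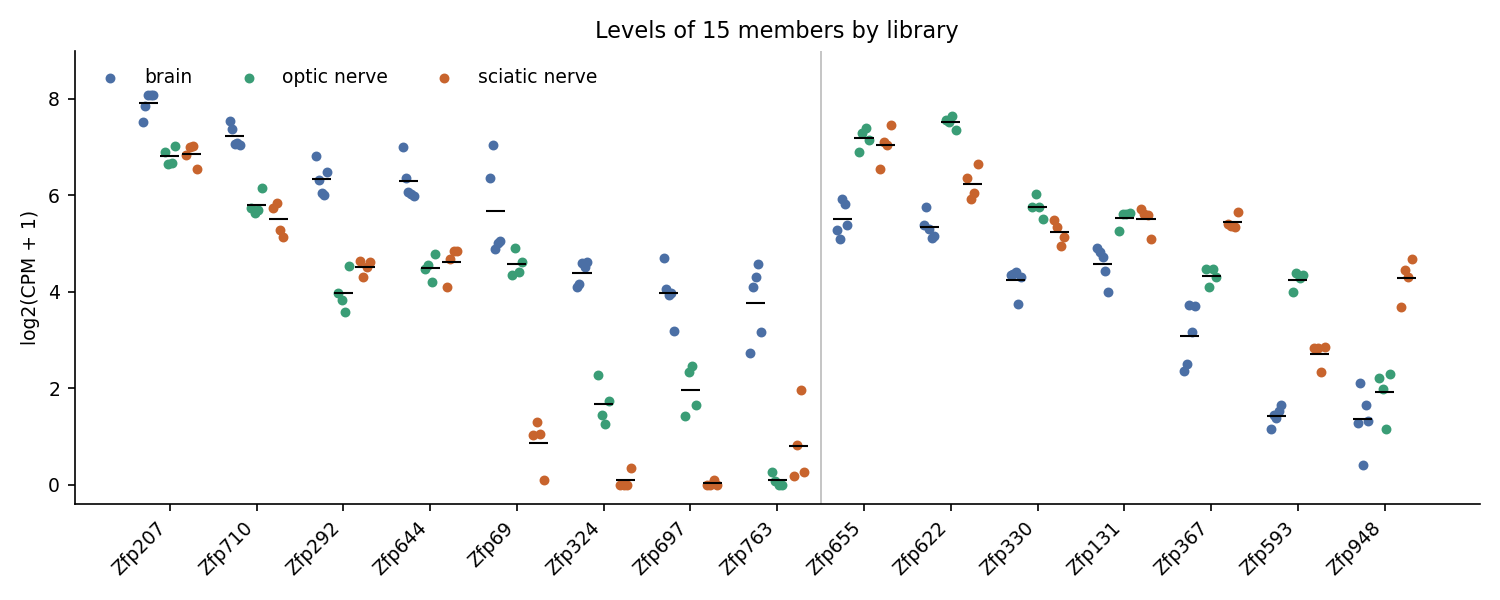
Levels of 15 members in each library as log2(CPM + 1), by tissue, with a line at the mean of each tissue. The 8 members left of the grey line are higher in brain than in sciatic nerve, and the 7 right of it are lower in brain than in sciatic nerve.

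A group of members was at or near 0 in one nerve. Zfp697 had 1 count in the 4 sciatic nerve libraries together and 1653 in the 5 brain libraries, a ratio of 857 with a 95% Poisson interval of 154 to 33900 that covers counting error only. Its brain levels were 25.01, 15.6, 14.3, 14.6 and 8.06 CPM, and those in optic nerve 1.66, 4.03, 4.52 and 2.13, so optic nerve lay between the other tissues. Hsd3b2 and Hsd3b3 overlap it on the other strand. Zfp11 also had 1 count in sciatic nerve, against 796 in brain (ratio 413, interval 73.8 to 16300). In optic nerve all 39 counts of Zfp11 came from library 3, the other 3 being at 0.

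Zfp324, which carries the KRAB pattern, had 16.02, 16.8, 23.2, 21.9 and 23.4 CPM in brain, 3.82, 1.72, 1.40 and 2.31 in optic nerve, and 0.267 in sciatic nerve library 4 with the other 3 at 0. In a sciatic nerve library at 0 the level may be as high as 0.216 CPM (3 counts). The 3 tissues did not overlap, and the log2 fold change was -8.09 (SE 0.87, adjusted p = 7.7e-07, edgeR quasi-likelihood test) in sciatic and -3.13 (SE 0.51, adjusted p = 0.0006) in optic nerve. Zfp69, a gene linked to diabetes in mice whose C57BL/6 allele carries an intronic retrotransposon that truncates the transcript, had 81.5, 132, 28.4, 31.1 and 32.1 CPM in brain, 19.3 to 28.9 in optic nerve and 1.05, 1.45, 1.08 and 0.0666 in sciatic nerve. Sciatic nerve stood apart from both other tissues, and brain libraries 1 and 2 carried most of the brain mean. The change was -6.06 (SE 0.58) against brain and -4.65 (SE 0.61) against optic nerve, with adjusted p = 2.9e-06 and 7.6e-05 by the same edgeR test.

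Zfp763 was lowest in optic nerve. It had 5.67, 16.02, 18.7, 22.9 and 7.93 CPM in brain, 0.201 and 0.0538 in 2 optic nerve libraries with the other 2 at 0, and 0.131, 0.761, 2.88 and 0.200 in sciatic nerve. It fell by 7.60 (SE 1.14) in optic nerve on the log2 scale, with adjusted p = 0.00013 by edgeR's quasi-likelihood test. The nerves overlapped, and the higher level in sciatic than in optic nerve (3.76, SE 1.19, adjusted p = 0.021) was no longer called without sciatic nerve library 3 (adjusted p = 0.13) or without optic nerve library 2, 3 or 4 (0.058, 0.059 and 0.057). Other large decreases in optic nerve were those of Zfp449 (-5.39), Zfp273 (-5.17), Zfp169 (-4.44), Zfp128 (-4.28), Zfp189 (-4.20), Zfp113 (-3.87) and Zfp974 (-3.87), from mean brain levels of 8.04 to 30.3 CPM to 0.222 to 2.07 CPM. Of these only Zfp189 was not called in sciatic nerve (-1.97, SE 0.84, adjusted p = 0.081).

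The 3 paralogs Zfp532, Zfp592 and Zfp687, which join the chromatin reader Zmynd8 in a complex, were all lower in sciatic nerve than in brain. Zfp532 had 18.8 to 41.5 CPM in brain, 7.59 to 11.8 in optic nerve, and 0, 0.0692, 0.216 and 2.13 in sciatic nerve. It changed by -5.36 (SE 0.74, adjusted p = 9.9e-05) against brain and by -3.96 (SE 0.77, adjusted p = 0.0022) against optic nerve in edgeR's quasi-likelihood test, and sciatic nerve library 4 held 32 of the 36 sciatic counts. Zfp592 averaged 38.4 ± 10.0 CPM (SD, n = 5) in brain, 14.1 ± 4.85 (n = 4) in optic nerve and 13.4 ± 8.32 (n = 4) in sciatic nerve and was lower in both nerves. Zfp687 averaged 17.5, 7.22 and 3.50 CPM in the same order, with brain library 2 at 2.39, and was not called in optic nerve (-1.28, SE 0.58, adjusted p = 0.10).

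The members that were higher in both nerves include assembly factors of the large ribosomal subunit. Zfp622, the homologue of yeast Rei1 in late maturation of that subunit, had 40.7, 53.3, 38.5, 33.7 and 34.9 CPM in brain, 189, 183, 200 and 164 in optic nerve, and 80.6, 59.3, 65.0 and 99.1 in sciatic nerve. No 2 tissues overlapped. It rose by 2.19 (SE 0.18, adjusted p = 2.7e-07) in optic and by 0.92 (SE 0.18, adjusted p = 0.00063) in sciatic nerve on the log2 scale, and sciatic lay below optic nerve (-1.28, SE 0.19, adjusted p = 0.00016), all by edgeR's quasi-likelihood test. Zfp593, the homologue of the yeast subunit export factor Bud20, had 1.21, 1.71, 1.59, 1.89 and 2.13 CPM in brain, 14.9, 19.8, 18.4 and 19.2 in optic nerve, and 6.15, 6.16, 4.03 and 6.26 in sciatic nerve. It showed the same order without overlap, with log2 fold changes of 3.40 (SE 0.29, adjusted p = 6.3e-07) and 1.72 (SE 0.29, adjusted p = 0.0002). Its exons overlap E130218I03Rik on the other strand, and the strand setting of the counting is not given in the sources used here.

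Zfp655, a protein that binds the signalling protein Vav, had 38.2, 33.3, 59.9, 55.5 and 40.8 CPM in brain, 118, 156, 168 and 140 in optic nerve, and 92.8, 137, 131 and 174 in sciatic nerve. Both nerves stood above brain and overlapped each other. The log2 fold changes were 1.55 and 1.68 (both SE 0.21), with adjusted p = 2.6e-05 in sciatic and 2.5e-05 in optic nerve by edgeR's quasi-likelihood test. Zfp330 (NOA36), a nucleolar protein with no C2H2 finger, had 12.5 to 20.3 CPM in brain, 44.5 to 64.4 in optic nerve and 30.1 to 44.0 in sciatic nerve. Zfp131, a BTB-domain factor, had 15.03 to 28.9 CPM in brain, 37.4 to 49.0 in optic nerve and 32.9 to 51.3 in sciatic nerve. Both were higher in each nerve, by 1.02 and 1.57 for Zfp330 (SE 0.19) and by 0.93 and 0.96 for Zfp131 (SE 0.21), in the order sciatic and optic. When total counts replaced TMM the sciatic call on Zfp131 was lost (adjusted p = 0.08 by the same edgeR test). The sciatic call on Zfp330 was not checked singly under alternative processing.

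Zfp367, a factor first described in erythroid cells, was graded across the tissues. It had 4.08, 4.66, 12.2, 8.03 and 12.1 CPM in brain, 21.0, 16.1, 21.3 and 18.7 in optic nerve, and 41.6, 40.2, 39.5 and 49.2 in sciatic nerve. The tissues did not overlap, and all 3 differences were called, at 2.37 (SE 0.30, adjusted p = 1.6e-05) in sciatic nerve and 1.23 (SE 0.30, adjusted p = 0.0057) in optic nerve against brain and 1.14 (SE 0.32, adjusted p = 0.018) between the nerves, by edgeR's quasi-likelihood test. Zfp948, a KRAB gene with 15 fingers, had 0.326 to 3.31 CPM in brain, 1.23 to 3.91 in optic nerve, and 11.8, 21.0, 18.7 and 24.8 in sciatic nerve. Sciatic nerve alone was high, with log2 fold changes of 3.44 (SE 0.52, adjusted p = 0.00011) against brain and 2.70 (SE 0.54, adjusted p = 0.0029) against optic nerve. Optic nerve did not pass the test against brain (0.74, SE 0.52, adjusted p = 0.28).

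Other members higher in sciatic nerve than in brain were Zfp395 (1.17), Zfp516 (1.11), Zfp704 (1.07), Zfp106 (0.82) and Zfp954 (0.80). The rule for named members does not cover Zfp954, which is named because it completes the 12. Zfp516, a partner of Prdm16 in brown fat, averaged 8.26 ± 2.86 CPM in brain (SD, n = 5), 8.73 ± 1.53 in optic nerve (n = 4) and 17.9 ± 4.75 in sciatic nerve (n = 4). The calls against brain on Zfp395, Zfp516 and Zfp106 were lost with total counts in place of TMM (adjusted p = 0.053, 0.082 and 0.33 by edgeR's quasi-likelihood test). That on Zfp106 was also lost without sciatic nerve library 2 or 3 or without brain library 2, 3, 4 or 5 (adjusted p of 0.053 to 0.12). The calls against brain on Zfp704 and Zfp954 were not checked singly under alternative processing.

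Between the nerves few members differed. Sciatic nerve was higher than optic nerve for 10 members and lower for 14, with 201 not called, where 10.9% of all genes tested were called in each direction. With total counts in place of TMM the split was 5 higher and 24 lower, and without sciatic nerve library 1 or 3 there were 6 higher members. The largest decreases were those of Zfp697 (ratio 180, counting interval 32.0 to 7140, from 1 count), Zfp324 (-4.96), Zfp69, Zfp532, Zfp760 (-2.18), Zfp276 (-1.72) and Zfp593 (-1.68). The call on Zfp760 was lost without any 1 of 9 libraries (sciatic nerve 1, 2 or 4, optic nerve 1, 3 or 4, brain 3, 4 or 5, adjusted p of 0.053 to 0.11, edgeR quasi-likelihood test), and that on Zfp105 (-1.48) without sciatic nerve library 1 or 3 or optic nerve library 2 or 3 (0.063 to 0.09).

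Zfp53 and Zfp422 were high in brain and sciatic nerve and low in optic nerve. Zfp53, a KRAB gene, had 5.54 to 7.85 CPM in sciatic nerve, 0.949 to 2.90 in optic nerve and 7.10 to 16.7 in brain. It was higher in sciatic than in optic nerve by 2.02 (SE 0.44, adjusted p = 0.0043, edgeR quasi-likelihood test), with no overlap. Zfp422 had 28.8 to 43.5 CPM in sciatic nerve, 8.65 to 21.6 in optic nerve and 22.9 to 46.2 in brain, and differed by 1.29 (SE 0.29, adjusted p = 0.0044). Sciatic nerve and brain overlapped for both genes. The calls on Zfp386 (1.15), Zfp516 (1.03) and Zfp704 (1.21) between the nerves were lost on leaving out single libraries, with adjusted p of 0.075 to 0.12 for Zfp386 (sciatic nerve 1 or 4, optic nerve 2, 3 or 4), 0.0501 to 0.139 for Zfp516 (any nerve library, brain 3, 4 or 5) and 0.054 to 0.066 for Zfp704 (sciatic nerve 2, optic nerve 1 or 2).

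Ranked by mean log2 CPM over the tissues, the leading members were Zfp706, Zfp207, Zfp655, Zfp622, Zfp263, Zfp710, Zfp148 and Zfp740. Per kilobase of exon, Zfp706 led at 44.0 CPM per kb as the mean of the 3 tissues, followed by Zfp207 (23.6), Zfp869 (19.5), Zfp655 (19.4) and Zfp263 (17.7), against a median of 2.11 over the members. Zfp706, a 76-residue protein with 1 finger known from the exit of embryonic stem cells from self-renewal, had 196, 270, 310, 291 and 281 CPM in brain, 197 to 202 in optic nerve and 170 to 205 in sciatic nerve. Brain library 1 lay among the nerve libraries and the other 4 above them. Zfp706 was lower in sciatic nerve (-0.51, SE 0.14, adjusted p = 0.0069, edgeR quasi-likelihood test) and in optic nerve (-0.44, SE 0.14, adjusted p = 0.021), the latter lost without optic nerve library 1 or 2 or brain library 3 (0.055, 0.0584 and 0.0503). Zfp263, a SCAN-domain factor, had mean levels of 67.9, 87.4 and 84.5 CPM in brain, optic and sciatic nerve and was called in no comparison.

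Of 19 members listed as transcription regulators, 10 were lower and 2 higher in sciatic nerve, and 10 lower and 1 higher in optic nerve, at medians of -1.08 and -1.07. Over all genes tested the shares were 24.3% lower and 24.1% higher in sciatic nerve and 17.4% and 19.6% in optic nerve, against 52.6% and 10.5% and 52.6% and 5.26% of these 19. The shares lower among the 19 were near those over all 225 members, 49.3% in sciatic and 51.1% in optic nerve. Members that passed the threshold through brain alone were not left out. Zfp217, which works with the CoREST complex, fell by 3.36 (SE 0.58) in optic nerve and 2.14 (SE 0.57) in sciatic nerve, from 19.3 to 1.86 and 4.35 CPM. Without brain libraries 1 and 2 the sciatic call was lost (adjusted p = 0.1, edgeR quasi-likelihood test). Zfp318, known for IgD splicing in B cells, averaged 25.4 ± 25.9 CPM in brain, where library 1 stood at 70.8, and 6.64 and 5.72 in optic and sciatic nerve. Its optic call was lost without brain libraries 1 and 2 (adjusted p = 0.11). Zfp148 and its paralog Zfp281 had mean levels of 93.8 and 60.0 CPM in brain, 55.7 and 44.6 in optic nerve and 63.0 and 57.3 in sciatic nerve. Only Zfp148 was called, at -0.57 in sciatic and -0.75 in optic nerve, and the sciatic call was lost without sciatic nerve library 1 or 4 or brain library 2, 3, 4 or 5 (adjusted p of 0.0502 to 0.0959). Zfp407 was lower in sciatic nerve (-1.32) and in optic nerve (-1.48). The sciatic call was lost without sciatic nerve library 1, 2 or 4 or brain library 3, 4 or 5 (adjusted p of 0.0734 to 0.106), and the optic call without optic nerve library 2 or 3 or brain library 3, 4 or 5 (0.0617 to 0.101). Zfp652 in optic nerve (-0.57) lost its call without any 1 of 9 libraries (sciatic nerve 2 or 3, optic nerve 1 to 3, brain 1, 3, 4 or 5, adjusted p of 0.0537 to 0.143). Zfp143 in optic nerve (-1.07) lost it without optic nerve library 2, 3 or 4 or brain library 3 or 4 (0.054 to 0.078). Zfp410, an activator of Chd4, was called in neither nerve (-0.46 and -0.27), nor was Chd4 (0.09 and 0.67).

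Of 12 members listed for work on RNA, ribosomes or ubiquitin and SUMO, 3 were lower and 3 higher in sciatic nerve (medians -0.14 and, in optic nerve, -0.22), and 3 lower and 2 higher in optic nerve. In sciatic nerve these are close to the shares over all genes tested (24.3% lower and 24.1% higher), which in optic nerve are 17.4% and 19.6%. Zfp598, the ubiquitin ligase of collided ribosomes, had 6.77, 8.28 and 6.58 CPM in brain, optic and sciatic nerve, and Zfp91, a ligase of the NF-kB pathway, had 34.7, 30.8 and 45.4, and neither was called. Zfp638, an RNA-binding protein that silences unintegrated retroviral DNA, was lower in optic nerve (-0.93, SE 0.30, adjusted p = 0.029, edgeR quasi-likelihood test), which was lost without optic nerve library 2 or 3 or brain library 1 or 4 (0.051 to 0.093). Zfp346, which binds double-stranded RNA, was lower in sciatic nerve (-1.14), which was lost without sciatic nerve library 3 (adjusted p = 0.052).

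Of 3 members listed for silencing, none was called in sciatic nerve. The full list held 8 genes, and these 3 are the ones over the members' count threshold. Of the 5 listed genes that were tested, 1 was lower and none higher in sciatic nerve, and the same held in optic nerve. Over all genes tested, 24.3% were lower and 24.1% higher in sciatic nerve, and 17.4% and 19.6% in optic nerve. Zfp809, which silences murine leukaemia proviruses, had 4.80 to 16.9 CPM in brain, 3.43 to 13.3 in optic nerve and 6.26 to 11.3 in sciatic nerve. Zfp445, a guard of imprints, had 4.08 to 17.0, 5.94 to 11.8 and 4.60 to 11.01 CPM in the same order, and the tissues overlapped for both. Zfp961 was lower in optic nerve than in brain (-2.57, SE 0.64, adjusted p = 0.0095, edgeR quasi-likelihood test), at 1.57 against 9.37 CPM.

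A short pattern of the KRAB A box was found in the encoded protein of 102 members and not in 122, while 1 pseudogene had no coding sequence. The pattern is strict and can miss diverged boxes. Of the 102, 49 were lower and 2 higher in sciatic nerve (median -1.58) and 57 lower and none higher in optic nerve (median -1.72). Of the 122 others, 62 were lower and 10 higher in sciatic nerve (median -1.22) and 58 lower and 6 higher in optic nerve (median -1.07). With and without the pattern, the shares lower in sciatic nerve were 48.0% and 50.8%, beside 24.3% of all genes tested. In optic nerve they were 55.9% and 47.5% beside 17.4%. The shares higher were 1.96% and 8.2% in sciatic nerve beside 24.1%, and 0% and 4.92% in optic nerve beside 19.6%. KRAB members also had lower levels, with median brain means of 12.97 against 20.1 CPM and median optic nerve means of 3.86 against 9.42 CPM. Between the nerves the median was 0.15 with the pattern and -0.20 without it. Among members over the threshold in every tissue the medians for sciatic and optic nerve were -0.57 and -0.61 with the pattern (17 members) and -0.46 and -0.43 without it (49).

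The number of encoded C2H2 fingers ran from 0 to 37 with a median of 10. The median log2 fold change in sciatic nerve was -0.51 for the 31 members with 1 to 4 fingers, -1.07 for 66 with 5 to 9, -1.57 for 73 with 10 to 14 and -1.79 for 50 with 15 or more. In optic nerve the medians were -0.44, -1.01, -1.49 and -2.22 in the same order, and 37 of the 50 members with 15 or more fingers were lower there. These 37 are 74.0% of the 50, beside 17.4% of all genes tested. Across the members Spearman's rho between finger number and log2 fold change was -0.341 in sciatic and -0.451 in optic nerve. Genes are not independent replicates, and the points share their libraries. The trend includes members that passed the threshold through brain alone, which by that grouping did not reach it in all libraries of either nerve. The medians of all 118 such members were -2.08 in sciatic and -2.23 in optic nerve. The part of this route of entry in the trend was not tested. Finger number also went with level (rho -0.319 with mean log2 CPM), and level with fold change (rho 0.519 and 0.622). With members split into 3 equal groups by mean level, the median change was -2.40, -1.14 and -0.61 in sciatic nerve from the lowest to the highest, and the part of level in the relation to finger number was not tested. The 12 members higher in sciatic nerve include Zfp948 with 15 fingers and Zfp516 with 10, while Zfp367, Zfp593, Zfp622 and Zfp330 have 2, 1, 3 and none.

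**Figure D4:**
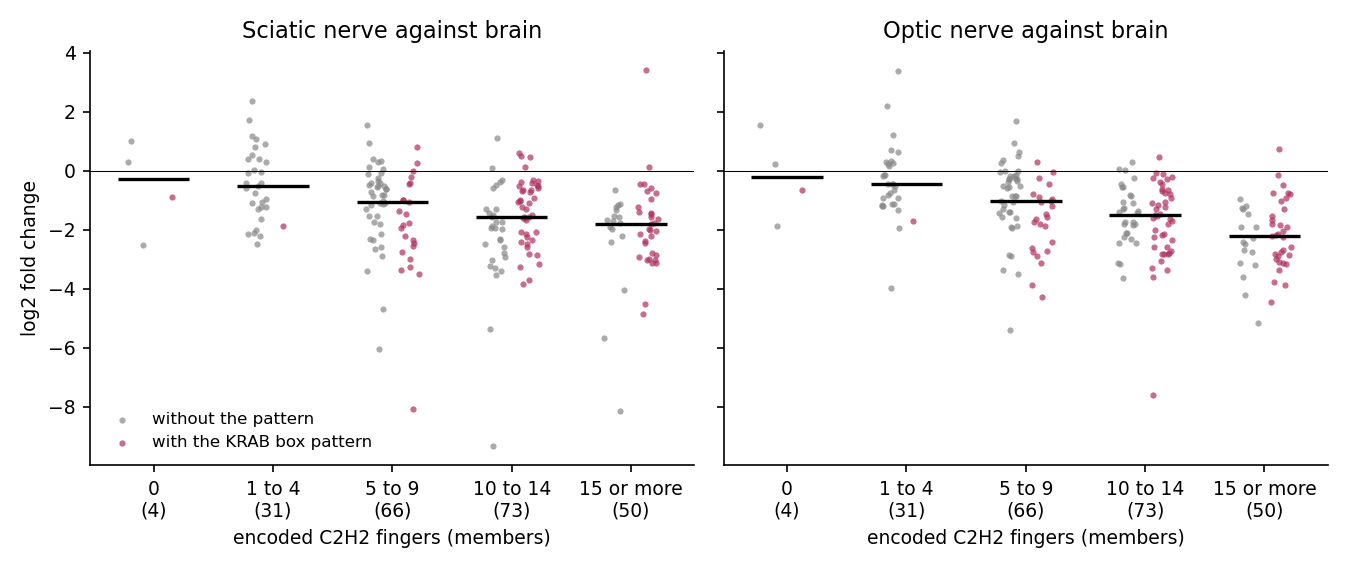
Log2 fold change against brain of 224 members by number of encoded C2H2 fingers (members in each bin in brackets), for sciatic nerve (left) and optic nerve (right). Red points carry the KRAB box pattern, grey points do not, and the bars are medians over both, from -0.51 at 1 to 4 fingers to -1.79 at 15 or more in sciatic nerve. Members that passed the threshold through brain alone are included.

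Of the members, 95 lie in 20 runs of at least 4 Zfp genes with gaps of at most 200 kb (GENCODE M21, GRCm38), and 11 of these runs hold 4 or more members. The run on chromosome 13 (67038596 to 67827002) holds 10 members from Zfp712 to Zfp273, of which 9 were lower in sciatic and 8 in optic nerve (medians -2.89 and -2.75). Zfp65 was not called in optic nerve (-2.63, SE 0.95, adjusted p = 0.057, edgeR quasi-likelihood test). Zfp429 was called in neither nerve, with mean levels of 13.9, 19.0 and 9.73 CPM in brain, optic and sciatic nerve. The run on chromosome 17 (21383748 to 22456689) holds 13 members, all with the KRAB pattern, of which 3 were lower and 1 higher in sciatic nerve and 5 lower in optic nerve (medians -0.91 in both). Within it lie Zfp948, at 1.75, 2.93 and 19.1 CPM in brain, optic and sciatic nerve, and Zfp760, at 14.4, 2.24 and 0.495. All 4 members of a run on chromosome 7 (12804977 to 12974236), Zfp110, Zfp128, Zfp324 and Zfp329, were lower in both nerves. Beside these counts, 24.3% of all genes tested were lower and 24.1% higher in sciatic nerve, and 17.4% and 19.6% in optic nerve. Over all 225 members the shares were 49.3% and 5.33% in sciatic nerve, and 51.1% and 2.67% in optic nerve. Members that passed the threshold through brain alone were not left out of the runs, so these counts are a description only. Neighbours in a run are often near copies, so counts of reads that fit several of them are uncertain.

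**Figure D5:**
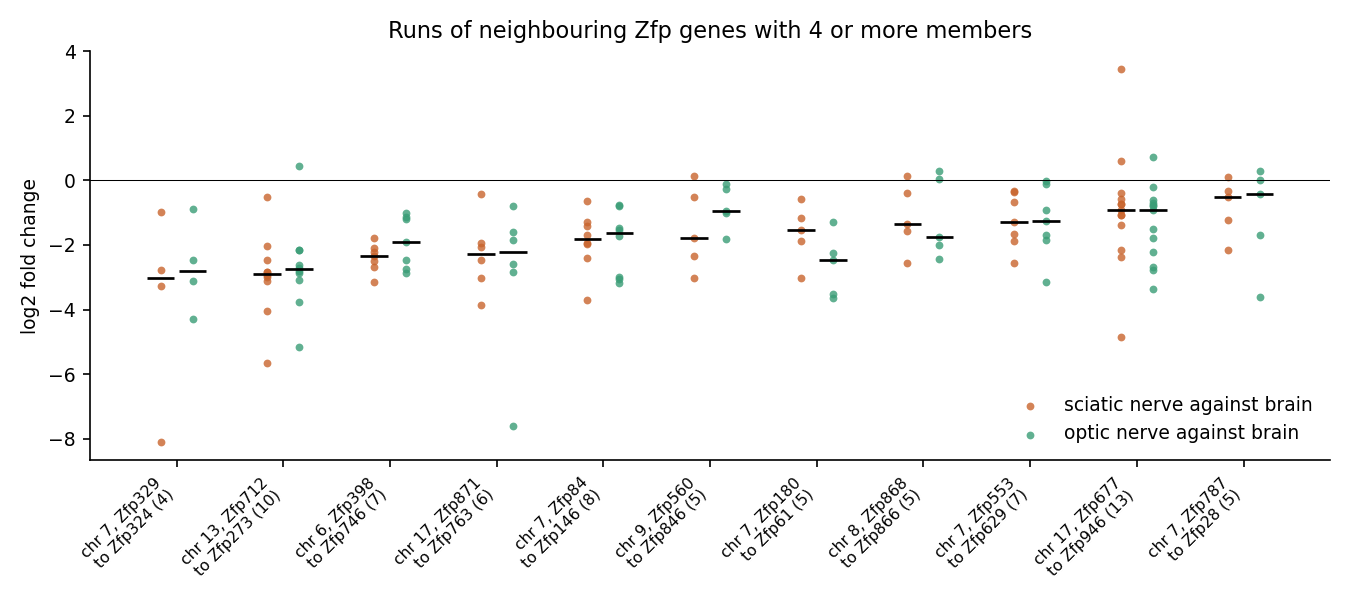
Log2 fold change against brain of the members in 11 runs of neighbouring Zfp genes, in order of the median change in sciatic nerve, with 1 point per member, the number of members in brackets and a bar at the median. The medians lie below 0 in every run. The chromosome 17 run from Zfp677 to Zfp946 spans from Zfp760 at -4.86 to Zfp948 at 3.44 in sciatic nerve. Members that passed the threshold through brain alone were not left out.

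Of the 71 members whose exons overlap another annotated gene, 37 were lower and 4 higher in sciatic nerve, and of the 154 without such an overlap 74 and 8. The shares were 52.1% lower and 5.63% higher with an overlap and 48.1% and 5.19% without. Over all genes tested they were 24.3% and 24.1%. The members varied more between replicates than all tested genes over the same count threshold, which were not matched to them on level. The median coefficient of variation was 36.0% against 21.8% in sciatic nerve, 39.8% against 20.4% in optic nerve and 32.8% against 28.7% in brain. Median levels were 5.66 against 28.2 CPM in sciatic nerve, 5.82 against 27.2 in optic nerve and 15.5 against 28.3 in brain. The part of level in this difference was not tested.

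Of 27 tested genes on a list of KRAB co-repressor and heterochromatin partners, 7 were lower and 2 higher than brain in each nerve, at medians of -0.46 and -0.39. The share lower, 25.9%, is near the 24.3% over all genes tested in sciatic nerve and stands beside 17.4% in optic nerve, and the share higher is 7.41% beside 24.1% and 19.6%. Trim28 had 84.3 ± 21.9 CPM in brain (SD, n = 5), 78.5 ± 9.06 in optic nerve (n = 4) and 47.8 ± 9.35 in sciatic nerve (n = 4). It was lower in sciatic nerve than in brain (-0.82, SE 0.20, adjusted p = 0.0042, edgeR quasi-likelihood test) and was not called in optic nerve (-0.10, SE 0.20, adjusted p = 0.72). Setdb1 was lower in both (-1.32 and -1.66, SE 0.43), and so was its cofactor Atf7ip (-1.58 and -1.78, SE 0.17), from 87.6 to 29.2 and 25.5 CPM. The calls on Trim28 and Setdb1, and that on Atf7ip in sciatic nerve, were not checked under alternative processing. Uhrf1, which brings Dnmt1 to replicated DNA, was higher in both nerves (4.07 and 3.01, SE 0.77), from 0.605 CPM in brain to 10.4 in sciatic and 4.99 in optic nerve. Suv39h2 was higher in sciatic nerve (3.05, SE 0.72, adjusted p = 0.0036), and its call in optic nerve (1.93, adjusted p = 0.049) was lost without any 1 of 9 libraries (sciatic nerve 1, 2 or 4, optic nerve 1 to 3, brain 1, 4 or 5, 0.059 to 0.16). In other zinc finger families, 12 of 32 Zbtb genes were lower and 5 higher in sciatic nerve (37.5% and 15.6%), and 7 lower and 3 higher in optic nerve (21.9% and 9.38%). Of 16 Zscan and Zkscan genes, 10 were lower and none higher in sciatic nerve, and 8 lower and 1 higher in optic nerve. Of 19 Zc3h genes, whose fingers mostly bind RNA, 1 was lower and 4 higher in sciatic nerve, and 1 lower and 5 higher in optic nerve. The shares over all genes tested given for the partner list apply to these families too.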

How the data were processed

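Total RNA of 13 samples was sequenced, and the values used are whole-number read counts per gene symbol as deposited by the authors, with no normalization. Per the submitters' processing notes, reads were aligned to mm10 with STAR and counted with featureCounts 1.5.1. The sources used here do not give the version of STAR, the annotation, the strand setting or how reads with several matches were handled. The number of columns of per-sample values not used is 0. Nerve columns were matched to samples by name and the brain columns to their group by elimination.

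The tests used edgeR 4.0.16 under R 4.3.3. The filter filterByExpr, run by tissue, kept 13246 genes, libraries were scaled by TMM, and 1 quasi-likelihood fit over all 13 libraries had tissue as its factor and no replicate block. P-values were adjusted by Benjamini-Hochberg over all genes tested and called under 0.05. The fit was tested on simulated counts. CPM were computed on TMM-adjusted library sizes. Their log2 values used a prior count of 2. Alternatives were DESeq2 1.42.0, other scalings, no filter, 2 tissues per fit, a replicate block, other member thresholds and each library left out; the threshold in every tissue was added after seeing the data. A count of 0 in 1 library allows 0.107 to 0.227 CPM (3 counts). Intervals and floors cover counting error only.

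Positions, exon lengths and coding features came from GENCODE M21 (GRCm38), where protein features had been planned from RefSeq proteins, and promoters from RefSeq (GRCm38.p6). Named members are, per comparison, the 6 largest increases and 8 largest decreases among those called, the 8 of highest level, those on the lists of known function and the 3 on each side of the threshold. The members and lists were chosen with earlier results of these data known.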

Additional observations from a re-analysis of the deposited data

Results flagged for a closer look

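In 27 of 195 groups of 4 or 5 libraries (62 named members and the summary measures of each tissue), 1 library stood apart from the rest by Dixon's criterion, which chance does in about 1 of 20 groups. Of the 12 brain groups with a library apart, that library was brain library 1 in 8. It was high for Zfp106 (28.6 CPM, the next 18.0), Zfp273 (20.02), Zfp318 (70.8, the next 21.1), Zfp326 (31.7), Zfp532 (41.5) and Zfp691 (42.6), low for Zfp148 (72.6), and high in its share of counts on mitochondrially encoded genes (3.79%, the next 0.868%). Brain library 2 was low for Zfp652 (42.6 CPM) and Zfp687 (2.39, the next 19.3), library 3 high for Zfp113 (40.8) and library 4 low for Zfp330 (12.5).

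In optic nerve, library 1 was high for Zfp217 (4.23 CPM) and Zfp326 (31.7) and low for Zfp131 (37.4), library 2 high for Zfp189 (2.85), library 3 high for Zfp11 (2.18, the others at 0) and library 4 high for Zfp128 (2.72) and Zfp273 (0.888, the others at 0). In sciatic nerve, library 1 was high for Zfp11 (0.0654 CPM), library 3 high for Zfp169 (2.16), Zfp697 (0.0720) and Zfp760 (1.44) and low for Zfp593 (4.03), and library 4 high for Zfp324 (0.267) and Zfp532 (2.13) and low for Zfp598 (5.20). The values for Zfp11 and Zfp697 in sciatic nerve are 1 count each.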

How the results depend on the processing

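Of 154 results on named genes, 80 were called, and none of these 80 reversed direction under the alternatives run. Direction was not checked for the results that were not called. With total counts in place of TMM the median of all genes moved to -0.53 in sciatic nerve, -0.33 in optic nerve (both against brain) and -0.19 between the nerves, and the members' sciatic median to -1.87, with 6 members higher in sciatic nerve than in brain and 5 higher and 24 lower between the nerves. Over members past the threshold in every tissue, chosen after seeing the data, the medians were -0.52 in sciatic and -0.47 in optic nerve, with 27 and 25 members lower, and 6 higher and 5 lower between the nerves. Sciatic nerve was higher than optic nerve for 16 members by DESeq2, 6 with no filter and 6 with the replicate block, which left 11 lower. Same-numbered nerve libraries did not deviate together (correlations of -0.074 to 0.021). This cannot settle whether the numbers pair them, since other variation between libraries could hide a pairing. No paired analysis with brain was possible because its columns are not tied to numbered samples.

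Leaving out 1 library at a time, lower members numbered 99 to 120 in sciatic and 87 to 122 in optic nerve against brain and 12 to 16 between the nerves. Higher members numbered 10 to 14, 6 to 8 and 6 to 11, and medians ran from -1.46 to -1.32, -1.44 to -1.27 and -0.15 to 0.01. Without brain libraries 1 and 2, 116 members were lower and 16 higher in sciatic nerve, and 119 and 9 in optic nerve. Depth limits members at a few counts, where single libraries set the value.

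With no low-count filter, calls by edgeR's quasi-likelihood test were also lost on Zfp148, Zfp346 and Zfp407 in sciatic nerve, on Zfp652, Zfp706 and Suv39h2 in optic nerve, and on Zfp386 and Zfp516 between the nerves (adjusted p of 0.052 to 0.0942). With only the tissues compared in the fit, those on Zfp148 in sciatic nerve, Suv39h2 in optic nerve, and Zfp386 and Zfp760 between the nerves were lost (0.0545 to 0.0887). The replicate block ended the calls between the nerves on Zfp105, Zfp386 and Zfp760 (0.0513 to 0.0883). Total counts in place of TMM ended those on Suv39h2 in optic nerve (0.0767) and on Zfp386, Zfp516 and Zfp704 between the nerves (0.0582 to 0.0836). The causes were not tested.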
